A study of Mus musculus with 12 samples.

Results

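Genes that build the autophagosome, or that hand cargo to it, were followed in colonic epithelial cells of mice with and without epithelial *Tfeb*, before and after injury by dextran sulfate sodium (DSS). The 38 genes were chosen by symbol from the 47632 genes of each deposited table by a rule that uses no measured value. The choice was made with earlier results of these data known. All 38 were present on each day. They fall into 11 genes of initiation, 6 of membrane supply, 13 of lipidation, 7 cargo receptors and 1 gene of fusion with the lysosome. Epithelial cells had been released with EDTA from the colons of C57/BL6 animals. Both genotypes carry floxed *Tfeb* alleles, and *Tfeb* ΔIEC animals also carry Cre recombinase under the villin promoter, which deletes *Tfeb* along the intestinal epithelium. On each of Day 0 (untreated), Day 4 (DSS) and Day 11 (after a recovery period on water), 2 animals per genotype were used, 12 in all. The labels give 2.5% DSS, and the methods give another concentration. Animals were 10 and 12 weeks old on Day 0, 12 weeks on Day 4 and 10 weeks on Day 11, so that age and day cannot be told apart between Days 4 and 11.

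Levels are FPKM, that is fragments of a gene per kilobase of its transcript, after scaling for library size. The authors' tables hold 1 value per gene, genotype and day, which combines both animals, so no spread between animals stands behind any value below. No test was made here from these single values, and every difference is a description of pooled values. The authors' own test results per gene were not used. A difference is log2 of the ratio of (FPKM + 1), *Tfeb* ΔIEC over *Tfeb* flox/flox, which understates the change of low genes. A gene was counted as higher or lower where it differed by at least 2-fold on this scale and reached 1 FPKM in either genotype. Values were scaled between genotypes of 1 day only, and each day stands in a table normalised separately.

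Some features of the whole tables touch every gene described. *Tfeb*, the targeted gene, had 0.901 FPKM in flox/flox and 0.185 in ΔIEC cells on Day 0, 1.08 and 0 on Day 4, and 1.18 and 0 on Day 11, in the direction of the labels. All 10 epithelial markers, such as *Epcam* and *Vil1*, were above 0 in every group, with sums of 13184 to 26148 FPKM that *Lgals4* and *Krt19* dominate. On Day 4 *Krt20*, *Vil1* and *Cdh1* were higher in ΔIEC cells, by 3.19, 2.83 and 2.70 on the log2 scale, *Cdx1* was lower (-1.75), and the other 6 lay within 2-fold. The 12 immune markers summed to 1.82 to 11.5 FPKM, with 4 to 9 of them at 0 in a group and *Cd68*, *Adgre1* and *S100a9* at 0 throughout. The 8 stromal markers summed to 2.37 to 4.92 FPKM, with 6 at 0 in 5 groups and 3 in ΔIEC cells on Day 0. On Day 4 the immune sum was 5.71 FPKM in flox/flox and 11.1 in ΔIEC cells. All 7 goblet cell markers were above 0 in 5 of 6 groups (6 in ΔIEC cells on Day 0), and their sum was 78505 against 16345 FPKM on Day 4, 77377 against 15432 on Day 11 and 22832 against 15041 on Day 0. The goblet cell markers did not share a direction, since on Day 4 *Tff3*, *Fcgbp*, *Zg16* and *Agr2* were lower in ΔIEC cells (-3.73 to -1.84) while *Muc2* and *Clca1* were higher (1.55 and 1.59), and on Day 0 *Tff3* and *Fcgbp* were lower and *Muc2* and *Spdef* higher. The 6 colonocyte markers, all above 0, summed to 23847 to 31198 FPKM, most of it *Car1*. Of these *Slc26a3* (33.3 and 271 FPKM) and *Aqp8* (25.3 and 69.3) were higher in ΔIEC cells on Day 4, and *Car4* and *Aqp8* were lower on Day 0. The part of these markers in the results below was not tested, and in bulk samples fewer cells of a type and less RNA per cell cannot be told apart. The FPKM of all genes summed to 1464717 in flox/flox and 820344 in ΔIEC cells on Day 4, a log2 difference of -0.84, against -0.0021 on Day 0. Day 11 resembled Day 4 closely, since 1679 of 11746 genes (14.3%) had an identical FPKM on both days in flox/flox and 1310 of 12826 (10.2%) in ΔIEC cells, although the labels give different animals. Whether the tables share libraries cannot be told from them, so the values of Day 11 are given beside those of Day 4 and not as a separate repetition.

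Macroautophagy encloses portions of cytoplasm in a double membrane that matures into an autophagosome and fuses with lysosomes. The ULK kinase complex starts the process, the class III phosphatidylinositol 3-kinase complex marks the site, and lipid transfer and scramblase proteins supply membrane. Ubiquitin-like conjugation enzymes then attach ATG8 proteins (the LC3 and GABARAP families) to the membrane, where cargo receptors bind them. In the intestinal epithelium autophagy is known for its role in Paneth and goblet cell secretion and in defence against invading bacteria. TFEB is a basic helix-loop-helix factor known in other cells to bind the sequence CACGTG, often with flanking bases, near starts of autophagy and lysosome genes.

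Because *Tfeb* is the gene that was deleted, promoters of the members were searched for this motif. RefSeq (GRCm38.p6) gave 36 promoters for 31 of the 38 genes, each 250 bases before to 50 after a transcription start. CACGTG, which reads the same on both strands, was in 5 of 36 (13.9%) and in 2349 of all 32851 promoters of the same length (7.15%). The longer palindrome TCACGTGA, which contains it, was in 1 of 36 (2.78%) and in 320 of all (0.974%). The 5 genes were *Atg3*, *Atg5*, *Atg7*, *Atg14* and *Bnip3*, and a match of letters is a description and not a binding site. The stretches before the start are shown for the 4 genes whose motif lies wholly upstream, 5′ to 3′ on the gene's strand, with CACGTG in capitals and without bases that GENCODE places in an exon. They are chr16:45158707-45158784 (*Atg3*, plus strand), chr10:44268189-44268338 (*Atg5*, plus), chr6:114670946-114671095 (*Atg7*, plus) and chr7:138909520-138909656 (*Bnip3*, minus).
Atg3: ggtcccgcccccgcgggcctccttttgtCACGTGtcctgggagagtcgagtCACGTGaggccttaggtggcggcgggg
Atg5: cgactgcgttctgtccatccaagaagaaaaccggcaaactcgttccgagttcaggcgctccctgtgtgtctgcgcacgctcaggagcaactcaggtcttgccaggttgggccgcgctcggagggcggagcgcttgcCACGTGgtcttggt
Atg7: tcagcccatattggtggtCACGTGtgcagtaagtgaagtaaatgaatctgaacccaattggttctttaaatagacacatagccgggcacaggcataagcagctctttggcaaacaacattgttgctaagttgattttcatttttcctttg
Bnip3: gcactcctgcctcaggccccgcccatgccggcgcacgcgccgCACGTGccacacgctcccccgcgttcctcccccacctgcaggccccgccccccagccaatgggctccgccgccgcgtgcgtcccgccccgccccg

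Counted from the transcription start, the motif began at -94 and -71 in *Atg3*, where the one at -71 is the longer palindrome, at -14 in *Atg5*, at -132 in *Atg7* and at -108 in *Bnip3*. The start used for *Atg7* lies 27999 bases inside the gene as GENCODE annotates it, in an intron of longer transcripts. In *Atg14* the motif began at -1 and spans the start. The day 4 log2 differences of these 5 genes, described with their groups below, were 0.04 for *Atg3*, 1.34 for *Atg5*, 1.69 for *Atg7*, -0.36 for *Atg14* and 0.78 for *Bnip3*.

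In untreated animals few autophagy genes differed by 2-fold between the genotypes on the log2(FPKM + 1) scale. Of the 38, 35 reached 1 FPKM in either genotype on Day 0, and their median level over all 38 was 3.24 FPKM in flox/flox and 3.44 FPKM in ΔIEC cells. *Rb1cc1*, *Vmp1* and *Calcoco1* were at least 2-fold higher in ΔIEC cells, beside 13.5% of all 9993 genes that passed the same filter, and *Uvrag* was lower, beside 16.1%. Of these *Rb1cc1* passed the filter only through ΔIEC and *Uvrag* only through flox/flox cells, and *Vmp1* and *Calcoco1* fell under the limit after subtraction of the length trend described below. These are 3 and 1 of 35 members, or 8.57% and 2.86%, which are smaller shares than those of all genes. At a minimum of 5 FPKM the order of the higher share turned, with 2 of 15 members (13.3%) beside 11.4% of all genes. Over all 38 members 22 differences were above 0 and 16 below, with a median of 0.24, beside 7885 above and 7011 below over all genes. Among those that passed the filter, the median was 0.25 for the 35 members and 0.06 for all genes.

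On Day 4, 10 of the 28 members that reached 1 FPKM were at least 2-fold higher in ΔIEC cells (35.7%), beside 25.6% of all 9371 genes that passed. They were *Atg13*, *Pik3c3*, *Wipi2*, *Vmp1*, *Atg5*, *Atg7*, *Atg12*, *Gabarapl1*, *Sqstm1* and *Calcoco1*. *Ulk1*, *Uvrag*, *Map1lc3a* and *Nbr1* were lower, 4 of 28 (14.3%) beside 26.1% of all genes. On Day 11 *Becn1* (1.19) and *Pik3r4* (1.03), just under the limit on Day 4 at 0.99 and 0.98, were counted as higher too. That gave 12 of 28 (42.9%) beside 26.1% of 9365 genes, and the same 4 members were lower (14.3%) beside 25.7%. A member that passed the filter only through its high genotype had to differ, and this holds for *Atg13*, *Pik3c3*, *Pik3r4*, *Atg4c*, *Atg7* and *Gabarapl1* on the higher side and *Ulk1*, *Uvrag* and *Wipi1* on the lower side on Day 4. With a filter on the mean over all 6 groups, which was chosen after the data were seen, 29 members passed and 10 were higher and 3 lower on Day 4, beside 24.1% and 24.8% of 8616 genes. Over all 38 members 26 differences were above 0 and 12 below on Day 4, and 27 and 11 on Day 11, with medians of 0.38 and 0.44. Over all genes 7816 differences were above 0 and 6482 below on Day 4, and 7909 and 6391 on Day 11. The medians of all genes without a filter on low values were 0.098 and 0.104. When each genotype was divided by its summed FPKM, 16 members were higher and 2 lower on Day 4, while the split over all genes moved from 25.6% and 26.1% to 40.5% and 15.2% and the median of all genes from 0.06 to 0.66. The members' share of higher genes was close to or below that of all genes in some other settings. It was 21.4% beside 20.3% after subtraction of a trend over transcript length (described below). It was 7.14% beside 7.36% at a limit of 4-fold and 7.14% beside 9.33% with a pseudocount of 5. The members' share stayed above that of all genes with a pseudocount of 0.1 (46.4% beside 32.6%) and without a filter (26.3% beside 16.8%). The same order held after centring on the median of all genes and at a limit of 1.5-fold.

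**Figure D1:**
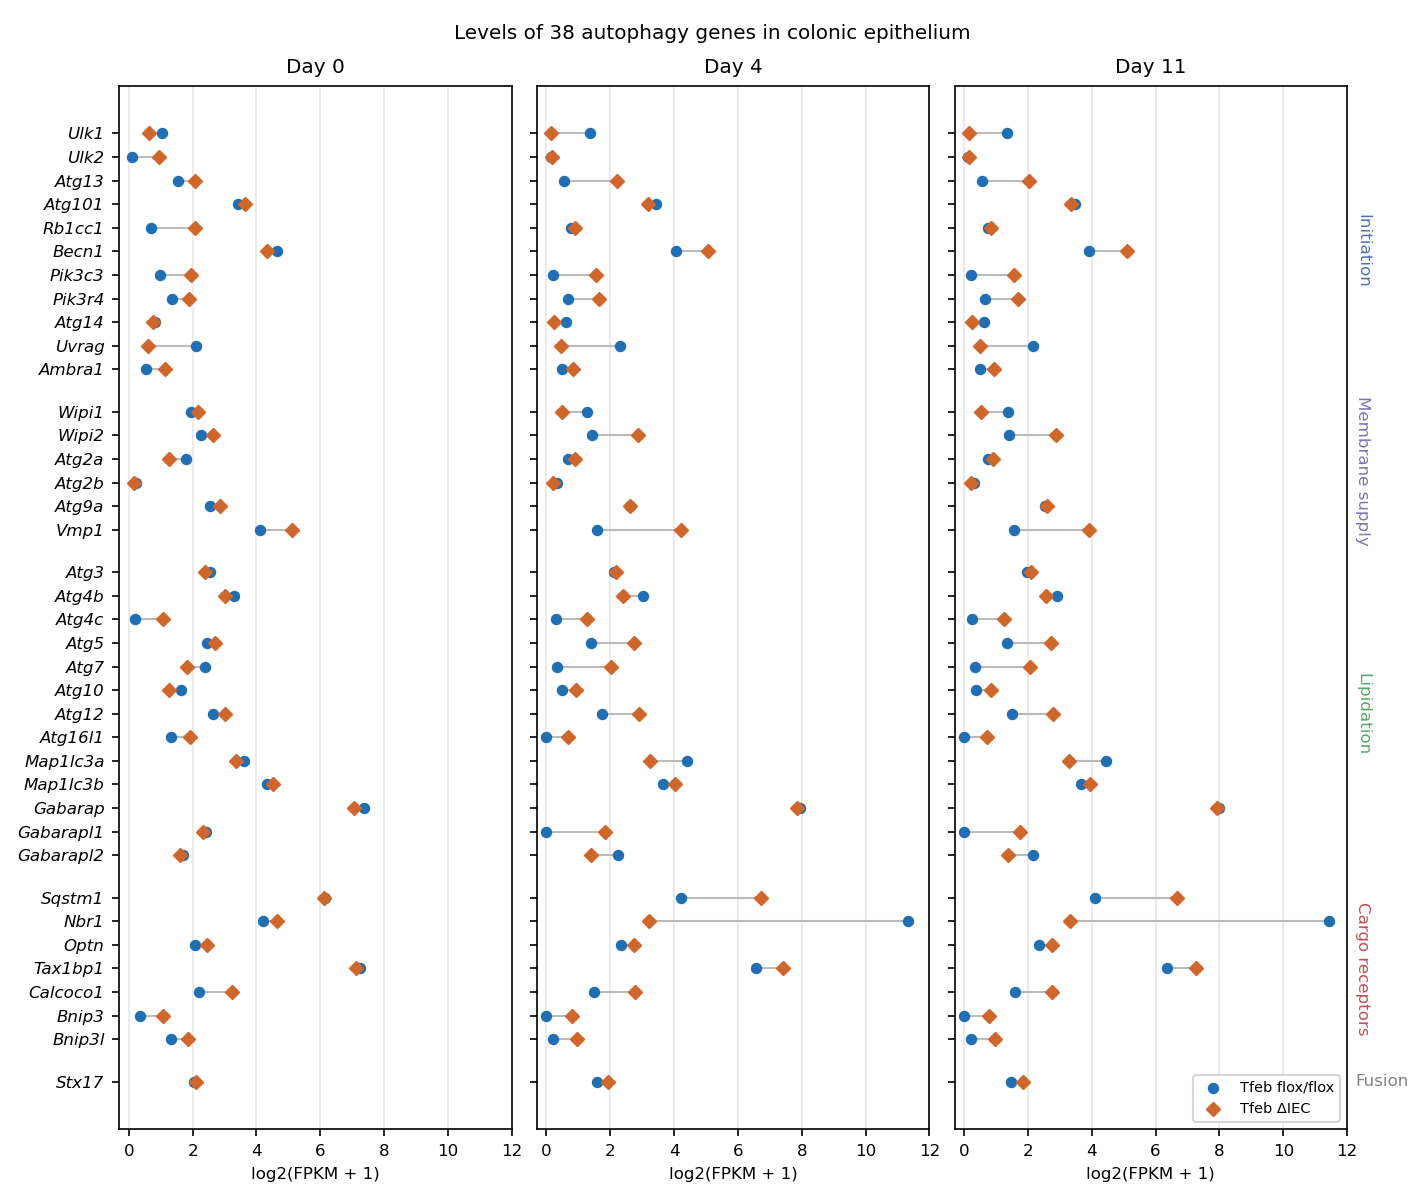
Level of each of the 38 autophagy genes as log2(FPKM + 1), in 1 panel per day. Circles are Tfeb flox/flox and diamonds Tfeb ΔIEC, each the authors' value from 2 animals with no error available, and the line joins the genotypes. On Day 0, 4 pairs lie at least 2-fold apart, and on Day 4 14 pairs do, where Nbr1 stands at 2601 FPKM in flox/flox.

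The ULK complex, which receives the starvation signal, differed between its subunits. *Ulk1*, the kinase itself, stood at 1.06 FPKM in flox/flox and 0.536 in ΔIEC cells on Day 0, and at 1.55 and 0.104 on Day 4, a log2 difference of -1.21 that became -0.87, under the limit, after division by summed FPKM. The Day 4 and Day 11 values of *Ulk1* in flox/flox were identical, and ΔIEC cells had 0.116 FPKM on Day 11. *Atg13*, the regulatory subunit that links ULK1 to the scaffold, had the opposite order under DSS, with 0.477 FPKM in flox/flox and 3.67 in ΔIEC cells on Day 4 (log2 difference 1.66) and 0.488 and 3.12 on Day 11. Untreated cells had had 1.89 and 3.25 FPKM of *Atg13*. *Rb1cc1*, which encodes the scaffold FIP200, was counted as higher on Day 0 only, at 0.608 FPKM in flox/flox and 3.25 in ΔIEC cells, and stood below 1 FPKM on the later days, at 0.706 and 0.860 on Day 4 and 0.671 and 0.801 on Day 11. *Atg101*, which stabilises ATG13, was the most abundant subunit, between 8.12 and 11.6 FPKM in all 6 groups, with a Day 4 log2 difference of -0.23 that became 0.52 after division by summed FPKM. *Ulk2*, the paralog of *Ulk1*, never reached 1 FPKM, with values of 0.0716 to 0.946. All *Ulk1*, *Atg13* and *Rb1cc1* levels were under 4 FPKM, where the added 1 weighs most.

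Within the class III phosphatidylinositol 3-kinase complexes, 1 of the 3 core genes, *Pik3c3*, passed the 2-fold limit on Day 4, and *Uvrag*, a subunit of 1 form, was lower. *Becn1*, the core subunit beclin 1, had 24.1 FPKM in flox/flox and 19.2 in ΔIEC cells on Day 0, 15.7 and 32.3 on Day 4 and 14.2 and 33.7 on Day 11, with log2 differences of -0.31, 0.99 and 1.19. It was thus just under the 2-fold limit on Day 4. *Pik3c3*, the catalytic subunit VPS34, stood at 0.979 and 2.84 FPKM on Day 0, 0.159 and 1.92 on Day 4 and 0.159 and 1.92 on Day 11. *Pik3r4*, the VPS15 pseudokinase, had 1.56 and 2.72 FPKM on Day 0, 0.598 and 2.16 on Day 4 and 0.582 and 2.23 on Day 11, with a Day 4 log2 difference of 0.98, also under the limit. After subtraction of the length trend described below, the Day 4 differences were 0.69 for *Pik3c3*, 0.42 for *Pik3r4* and 1.04 for *Becn1*. For *Pik3c3* and *Pik3r4* the genotype order was the same on every day, and for *Becn1* it was opposite on Day 0. *Uvrag*, which defines the form of the complex that acts on endosomes, was lower in ΔIEC cells on all 3 days, at 3.32 and 0.526 FPKM, then 3.94 and 0.384, then 3.43 and 0.415. Its log2 differences were -1.50, -1.84 and -1.65, which makes it the only member counted on the lower side before injury. *Atg14*, which defines the form that acts in autophagy, was under 1 FPKM in every group (0.186 to 0.758). *Ambra1*, a regulator of beclin 1, had 0.458 and 1.20 FPKM on Day 0 and 0.401 and 0.794 on Day 4.

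Among the 6 genes of membrane supply, *Vmp1* differed most between genotypes on Day 4, under each alternative scaling and pseudocount tried. VMP1 is a scramblase of the endoplasmic reticulum. Its FPKM were 16.2 in flox/flox and 33.6 in ΔIEC cells on Day 0, 1.99 and 17.6 on Day 4 and 1.96 and 13.9 on Day 11, with log2 differences of 1.01, 2.64 and 2.34. As plain ratios of FPKM these were 2.07, then 8.85, then 7.12. In flox/flox cells the value of *Vmp1* was thus far lower on Day 4 than on Day 0, while in ΔIEC cells it differed less. The gene (chromosome 11, 86583865 to 86683836, minus strand) shares exon sequence with *Mir21a* on the same strand, which was listed at 0 in every group. *Wipi2*, which reads phosphatidylinositol 3-phosphate and recruits ATG16L1, stood at 3.78 and 5.23 FPKM on Day 0, 1.70 and 6.22 on Day 4 and 1.65 and 6.37 on Day 11. The related *Wipi1* had the opposite order under DSS, with 2.83 and 3.55 FPKM on Day 0, 1.39 and 0.395 on Day 4 and 1.60 and 0.441 on Day 11. *Atg9a*, the scramblase of the ATG9 vesicles, lay between 4.76 and 6.20 FPKM in all groups, with a Day 4 log2 difference of -0.02 that became 0.67 after division by summed FPKM. The lipid transfer proteins were low, *Atg2a* with 2.47 and 1.37 FPKM on Day 0 and 0.592 and 0.844 on Day 4, and *Atg2b* with 0.112 to 0.252 FPKM throughout.

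Of the lipidation machinery, the 8 conjugation enzymes had a median log2 difference of 0.82 on Day 4 and the 5 ATG8 genes one of -0.10. After division by summed FPKM these medians were 1.005 and 0.73, with a pseudocount of 0.1 they were 1.59 and -0.10, and with a pseudocount of 5 they were 0.23 and -0.10. After subtraction of the length trend they were 0.45 over the 6 enzymes that reached 1 FPKM (1.07 before) and 0.20, so the distance between the groups depended on the processing. *Atg7*, the E1-like enzyme that activates both ATG12 and the ATG8 proteins, stood at 4.28 FPKM in flox/flox and 2.54 in ΔIEC cells on Day 0, 0.261 and 3.07 on Day 4 and 0.261 and 3.22 on Day 11. The order of the genotypes was thus opposite on Day 0 and Day 4, with log2 differences of -0.57 and 1.69. *Atg5*, the acceptor of ATG12, had 4.42 and 5.45 FPKM on Day 0, 1.62 and 5.64 on Day 4 and 1.56 and 5.52 on Day 11. For *Atg12* the values were 5.24 and 7.05 FPKM, then 2.35 and 6.52, then 1.85 and 5.89. *Atg5* and *Atg12* encode the partners of 1 conjugate, and their Day 4 log2 differences were 1.34 and 1.17. *Atg16l1*, which directs that conjugate to the membrane, stood at 1.48 and 2.76 FPKM on Day 0 and was listed at 0 in flox/flox on Days 4 and 11, where ΔIEC cells had 0.591 and 0.642. *Atg16l1* therefore did not reach 1 FPKM on those days, and no fold is given.

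None of the other 4 conjugation enzymes was counted as higher or lower on any day. *Atg3*, the E2-like enzyme for ATG8 proteins, had 4.87 and 4.19 FPKM on Day 0, 3.35 and 3.48 on Day 4 and 2.95 and 3.25 on Day 11, with a Day 4 log2 difference of 0.04 that became -0.01 after centring on all genes and -0.50 after subtraction of the length trend. *Atg10*, the E2-like enzyme for ATG12, stood at 2.10 and 1.38 FPKM on Day 0 and 0.407 and 0.878 on Day 4. Of the proteases that cut ATG8 proteins, *Atg4b* was at 8.83 and 7.01 FPKM on Day 0 and 7.15 and 4.24 on Day 4 (log2 difference -0.64, or 0.07 after division by summed FPKM). *Atg4c* showed the reverse order at a lower level, with 0.134 and 1.10 FPKM on Day 0, 0.219 and 1.39 on Day 4 and 0.189 and 1.36 on Day 11. Its log2 differences of 0.89, 0.97 and 0.99 stayed below the limit. As plain ratios of FPKM they were 8.19, 6.33 and 7.19, and the Day 4 log2 difference became 1.23 after division by summed FPKM.

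The 5 ATG8 genes did not share a direction. *Gabarap* was among the most abundant members throughout, at 163 and 131 FPKM on Day 0, 248 and 231 on Day 4 and 252 and 244 on Day 11. Its log2 differences were -0.31, -0.10 and -0.05, and the Day 4 value became 0.73 after division by summed FPKM. *Map1lc3a*, which encodes LC3A, was lower in ΔIEC cells under DSS, with 11.1 and 9.18 FPKM on Day 0, 20.3 and 8.55 on Day 4 and 20.8 and 8.71 on Day 11. Its Day 4 log2 difference was -1.16, and -0.38 after division by summed FPKM. *Map1lc3b*, which encodes the LC3B protein used to count autophagosomes, had 19.1 and 21.8 FPKM on Day 0, 11.5 and 15.2 on Day 4 and 11.6 and 14.4 on Day 11. *Gabarapl1* stood at 4.39 and 3.98 FPKM on Day 0 and was listed at 0 in flox/flox on both later days, where ΔIEC cells had 2.54 and 2.36. *Gabarapl2* had the opposite order, with 2.24 and 2.06 FPKM on Day 0, 3.69 and 1.65 on Day 4 and 3.50 and 1.56 on Day 11. ATG8 genes share sequence, and how reads that fit several genes were assigned is not given in the sources used here.

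Cargo receptors held the most negative difference of the 38 members and, in *Sqstm1*, a large positive one. *Sqstm1* (chromosome 11, 50199366 to 50210827, minus strand) encodes p62, which binds ubiquitin and LC3 and is itself degraded by autophagy. It had 69.7 FPKM in flox/flox and 68.2 in ΔIEC cells on Day 0, 17.5 and 105.8 on Day 4 and 16.2 and 100.8 on Day 11. The genotypes were thus level before injury, with a log2 difference of -0.03, and differed by 2.53 and 2.57 under DSS, a ratio of 6.03 on Day 4 and 6.24 on Day 11. *Sqstm1* was at least 2-fold higher on Day 4 under each alternative scaling, filter, pseudocount and limit tried. *Nbr1*, a ubiquitin receptor related to p62, went the other way by a far larger amount. Its FPKM were 17.5 and 23.9 on Day 0, 2601 and 8.21 on Day 4 and 2744 and 8.98 on Day 11, with log2 differences of 0.43, -8.14 and -8.10.

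The flox/flox value of *Nbr1* was the highest of any member in any group, while its ΔIEC value stayed between 8.21 and 23.9 FPKM. *Nbr1* (chromosome 11, 101552149 to 101581951, plus strand) has 21 annotated transcripts in GENCODE, of which the shortest, a small non-coding RNA, is 63 nt long. No other member has an annotated transcript under 200 nt. Whether reads of that short transcript or of the receptor mRNA stand behind the value cannot be told from a table of 1 value per gene, and its part was not tested.

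The other receptors lay between these extremes. *Tax1bp1*, which binds ubiquitin and myosin VI, was abundant, with 152 and 137 FPKM on Day 0, 93.2 and 171.0 on Day 4 and 80.7 and 152 on Day 11, and a Day 4 log2 difference of 0.87. *Optn*, the receptor optineurin, had 3.17 and 4.42 FPKM on Day 0, 4.08 and 5.68 on Day 4 and 4.05 and 5.77 on Day 11, a log2 difference close to 0.4 on each day, which became -0.24 on Day 4 after subtraction of the length trend. *Calcoco1*, a receptor for endoplasmic reticulum, was counted as higher on all 3 days, at 3.55 and 8.40 FPKM, then 1.84 and 5.84, then 2.00 and 5.79. After subtraction of the length trend its log2 differences were 0.74, 0.58 and 0.44, under the limit on each day. The mitophagy receptors *Bnip3* and *Bnip3l* were low. *Bnip3* stood at 0.271 and 1.08 FPKM on Day 0 and was listed at 0 in flox/flox on the later days, where ΔIEC cells had 0.722 on both. *Bnip3l* had 1.49 and 2.65 FPKM on Day 0 and 0.154 and 0.961 on Day 4. *Stx17*, the SNARE protein through which autophagosomes fuse with lysosomes, lay at 3.09 and 3.33 FPKM on Day 0 and 1.98 and 2.79 on Day 4.

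The members were also described by step. Over all members of a group, the median log2 difference on Day 0 was 0.54 for initiation, 0.28 for membrane supply, -0.11 for lipidation and 0.43 for cargo receptors. On Day 4 the values were 0.12, 0.10, 0.42 and 0.78, and on Day 11 they were 0.11, 0.11, 0.49 and 0.78. On Day 4 initiation ran from -1.84 to 1.66, membrane supply from -0.78 to 2.64, lipidation from -1.16 to 1.82 and receptors from -8.14 to 2.53. Among the members that reached 1 FPKM, the Day 4 medians were 0.98 for 7 initiation genes, 0.37 for 11 lipidation genes and 0.87 for 5 receptors, and after subtraction of the length trend they were 0.42, 0.32 and 0.22, so that the order of the groups depended on the low genes and on this subtraction. Within lipidation, 7 of 8 conjugation enzymes were above 0 on Day 4 and 2 of 5 ATG8 genes. Over all genes 7816 were above 0 and 6482 below. After division by summed FPKM *Atg4b* (0.07) and *Gabarap* (0.73) were also above 0. With the length trend subtracted *Gabarap* was above 0 (0.66) and *Atg3* below it (-0.50). The medians were then 0.45 over 6 enzymes and 0.20 over the ATG8 genes. On Day 0 the medians of the 8 enzymes and of the 5 ATG8 genes were 0.04 and -0.11.

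**Figure D2:**
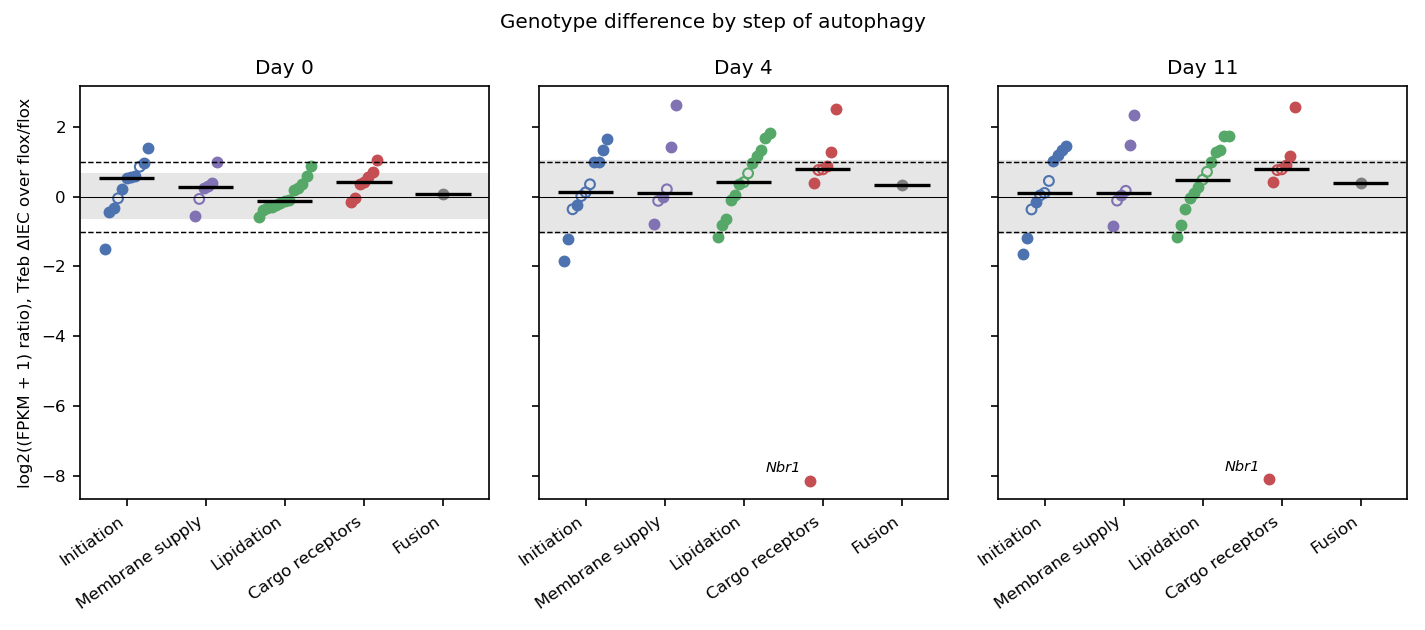
Log2 ratio of (FPKM + 1), Tfeb ΔIEC over flox/flox, for each member by step of autophagy, in 1 panel per day. Filled points reached 1 FPKM in either genotype and open points did not, black bars are medians over all members of a step, dashed lines the 2-fold limits and the grey band the middle 50% of all genes that passed (-1.05 to 1.02 on Day 4). The steps overlap on each day, and Nbr1 lies apart at -8.14 and -8.10.

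Day 4 values were also set beside those of Day 0 within each genotype. All 10 members counted as higher on Day 4 had a lower level on Day 4 than on Day 0 in flox/flox cells, 5 of them by at least 2-fold, with a median log2 change of -1.01 and a range of -2.53 to -0.68. In ΔIEC cells 5 of the 10 were below and 5 above their Day 0 level, none by 2-fold, with a median of -0.03 and a range of -0.89 to 0.63. Of all 2401 genes counted as higher on Day 4, 85.5% were below Day 0 in flox/flox cells and 42.8% in ΔIEC cells, with median log2 changes of -1.05 and 0.14. Of the 10 members 4, and of the 2401 genes 1222, had passed only through ΔIEC cells. The 4 lower members were all above Day 0 in flox/flox cells and all below it in ΔIEC cells, and 2 of them had passed only through flox/flox. Of all 2442 genes counted as lower, 9.62% were below Day 0 in flox/flox cells and 57.1% in ΔIEC cells. Over all 38 members, 26 were below Day 0 in flox/flox cells and 27 in ΔIEC cells, with medians of -0.52 and -0.26. The median of all genes with at least 1 FPKM on either day was -0.20 in both genotypes, close to the members' value in ΔIEC cells. Among genes with at least 1 FPKM on either day in the genotype, 9 of 30 members (30%) in flox/flox and 4 of 33 (12.1%) in ΔIEC cells were lower by at least 2-fold, beside 25.7% and 15.6% of all 9617 genes in each. These changes compare tables that were normalised separately, the days differ in the age of the animals, and the choice of members by their Day 4 difference fixes part of the pattern.

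**Figure D3:**
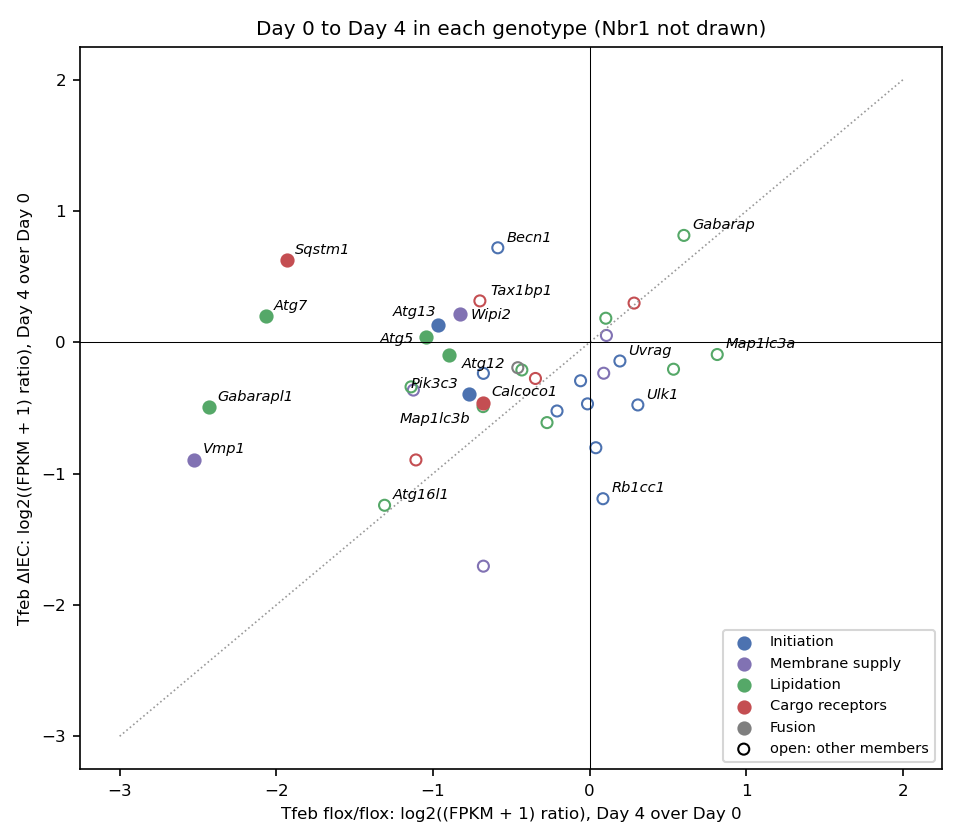
Log2 ratio of (FPKM + 1), Day 4 over Day 0, in Tfeb flox/flox (horizontal axis) and Tfeb ΔIEC (vertical axis) for 37 members, coloured by step. Filled points are the members counted as higher in ΔIEC cells on Day 4, and the dotted line marks equal change. The filled points lie between -2.53 and -0.68 horizontally and between -0.89 and 0.63 vertically. Nbr1 (7.14 in flox/flox) is not drawn.

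Transcript length moved with the genotype difference in the tables as a whole. Across 9271 genes, Spearman's rho between the Day 4 log2 difference and the median transcript length in GENCODE was 0.37, a value across genes, which are not independent replicates, and over the 28 members it was -0.09. Genes of 200 to 1200 nt had a median difference of -1.11, and genes of 2400 to 4000 nt a median of 0.65. The members are long, with a median of 3034 nt (902 in *Gabarapl1* to 7607 in *Rb1cc1*), against 1894.5 nt for all genes that passed on Day 4. Of the 10 higher members 6 lay in the bin of 2400 to 4000 nt, where the 9 members had a median of 1.34 and all genes 0.65. At 4000 nt and above the order was opposite, with a median of -0.64 over 7 members, of which 1 was higher and 3 were lower, and 0.46 over all genes. After the running median over length was subtracted, 6 of 28 members (21.4%) were at least 2-fold higher on Day 4 and 6 (21.4%) were lower, beside 20.3% and 20.3% of the 9271 genes, so that the members' share was then close to that of all genes. Of the 10 higher members 5 stayed above the limit. The 6 were *Gabarapl1* (2.57), *Vmp1* (2.05), *Sqstm1* (1.92), *Atg13* (1.11), *Atg7* (1.07) and *Becn1* (1.04), of which *Becn1* had not been counted before. The 6 lower ones were *Nbr1* (-8.64), *Uvrag* (-2.38), *Ulk1* (-1.63), *Wipi1* (-1.39), *Atg4b* (-1.26) and *Gabarapl2* (-1.15), of which 3 had been counted before. *Pik3c3*, *Wipi2*, *Atg5*, *Atg12* and *Calcoco1* fell below the limit, at 0.57 to 0.81. The part of length in the result was not tested beyond this subtraction.

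**Figure D4:**
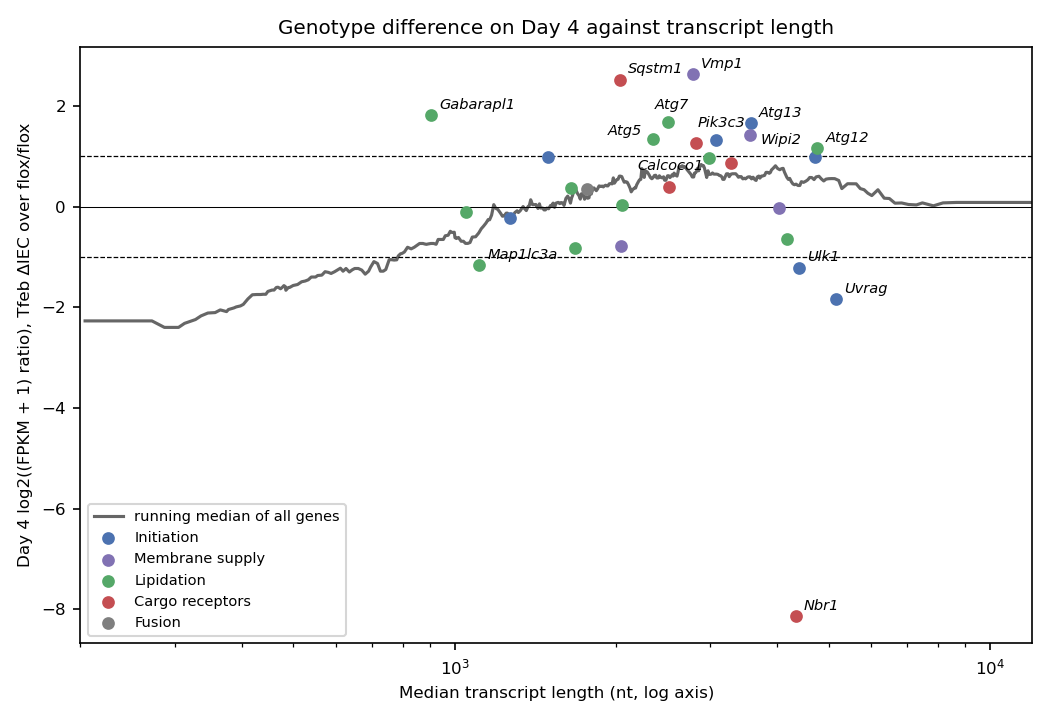
Day 4 log2 ratio of (FPKM + 1), Tfeb ΔIEC over flox/flox, against median transcript length (nt, log axis) for the 28 members that reached 1 FPKM, coloured by step. The grey line is the running median of all genes over 201 neighbours in length, and dashed lines mark the 2-fold limits. Gabarapl1, Sqstm1 and Vmp1 lie farthest above the line, and Nbr1, Uvrag and Ulk1 farthest below it.

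Other genes of the pathway were taken from 3 lists outside the 38, and their counts stand beside the 25.6% higher and 26.1% lower of all genes on Day 4. Of 20 further machinery genes 13 reached 1 FPKM on Day 4, with 4 higher (30.8%) and 2 lower (15.4%). Of the higher ones *Nrbf2* and *Tmem41b* passed only through ΔIEC cells. *Irgm1*, an interferon-inducible GTPase that promotes autophagy of microbes, stood at 2.57 FPKM in flox/flox and 17.7 in ΔIEC cells, with 9.07 and 7.47 on Day 0. *Atg4d* (log2 difference 1.02), *Nrbf2* (1.13) and *Tmem41b* (1.62) were also higher, the last 2 being listed at 0 in flox/flox. TMEM41B acts with VMP1 as a scramblase. *Vamp8*, a SNARE protein that pairs with syntaxin 17 and also serves secretion, was lower at 229 and 58.3 FPKM, and had been at 117 and 65.0 on Day 0. *Trp53inp2*, which binds LC3, was lower at 27.7 and 8.45 FPKM.

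Of 16 further receptors and mitophagy genes 15 passed on Day 4, with 4 higher (26.7%, close to the share of all genes) and 2 lower (13.3%). Of the higher ones *Ccpg1*, *Tbk1* and *Bcl2l13* passed only through ΔIEC cells. *Ccpg1*, a receptor for endoplasmic reticulum, had 0.393 FPKM in flox/flox and 4.16 in ΔIEC cells, and *Tbk1*, the kinase that phosphorylates optineurin and p62, had 0.766 and 3.57. *Tollip* and *Bcl2l13* were higher by 1.51 and 1.49 on the log2 scale. The 2 lower genes were receptors for endoplasmic reticulum. *Fam134a* stood at 266 and 1.52 FPKM, after 2.59 and 2.35 on Day 0, and *Sec62* at 25.5 and 2.96, after 3.69 and 3.38.

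Of 18 genes of the kinases upstream of ULK1, 12 passed on Day 4, with 3 higher (25%, close to the share of all genes) and 0 lower. Of these *Prkaa1* passed only through ΔIEC cells. *Rheb*, the GTPase that activates mTORC1, stood at 7.03 and 18.5 FPKM. Of the subunits of AMPK, which activates ULK1, *Prkaa1* had 0.380 and 1.96 FPKM and *Prkab1* 13.8 and 29.9, and both were counted as higher. *Prkaa2* (log2 difference 0.96) and *Prkag1* (0.93) were under the limit, and *Prkab2* did not reach 1 FPKM. *Mtor* itself was at 3.10 and 1.10 FPKM on Day 4 (log2 difference -0.97) and passed the limit on Day 11, at 3.62 and 1.12. On Day 0 the 3 lists had 2, 1 and 0 genes that were higher and 0 that were lower, of 17, 15 and 13 that passed. The shares higher were 11.8%, 6.67% and 0%, beside 13.5% of all genes. On Day 11 they had 5 higher and 3 lower, 4 and 2, and 4 and 1. The shares higher were then 38.5%, 26.7% and 33.3%, beside 26.1% of all genes, and the shares lower 23.1%, 13.3% and 8.33%, beside 25.7%.

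Of the 38 members 13 share exon sequence with another annotated gene, mostly on the opposite strand, among them *Sqstm1*, *Becn1*, *Vmp1*, *Map1lc3b* and *Gabarapl1*. The overlapping genes found in the tables stood at 0 to 2.63 FPKM. Whether counting used the strand is not given in the sources used here, so reads of such pairs cannot be told apart. The ratio of Day 11 to Day 4 over the members was 0.705 to 1.15 in flox/flox and 0.791 to 1.16 in ΔIEC cells, and the largest shift of a log2 difference was 0.302, in *Vmp1*. Because the tables of these days hold many identical values, this closeness is no measure of the spread between animals. Of the members above 0 on both days, 4 of 35 in flox/flox and 2 of 38 in ΔIEC cells had an identical FPKM.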

How the data were processed

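RNA of colonic epithelium had been sequenced in 6 groups, 2 genotypes on 3 days with 2 animals each, and groups follow the labels. A SmartSeq2 variant gave full-length cDNA, which the authors sequenced as paired ends on a MiSeq and mapped to mm10 with Tophat2 and Bowtie (TopHat2 2.0.14 and Cuffdiff 2.1.1 in the submitters' processing notes). The FPKM were deposited by the authors in 1 Cuffdiff table per day, with 1 value per gene and genotype. The tables also hold the authors' log2 fold change, test statistic, p-value, q-value and call, which were not used here. Read counts were not used here, so the depth is unknown and no interval or lowest detectable level is stated.

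The 3 tables were joined by Ensembl identifier. Log2 ratios used a pseudocount of 1 FPKM, a filter of 1 FPKM in either genotype and a limit of 2-fold. From 1 value per group no test was made here, and the authors' p-values and q-values were left aside. Transcript lengths, positions and overlaps are from GENCODE M21 (GRCm38, the assembly of mm10), where 47218 of 47632 genes and all 38 members matched, and promoters are from RefSeq (GRCm38.p6). Length trends are running medians over 201 genes of at least 200 nt. Every member is named or counted in its group, genes of the other lists are named if past the limit on Day 4 (*Mtor*, *Prkaa2*, *Prkag1* and *Prkab2* were added with their values already known), and *Tfeb* is given as the check of the labels. Members and lists were chosen with earlier results of these data known. Alternatives were pseudocounts of 0.1 and 5, no filter or 5 FPKM, division by summed FPKM, centring, subtraction of the length trend, limits of 1.5-fold and 4-fold, and omission of *Nbr1*. A filter on the mean over 6 groups was added after the data were seen. Counting was done in Python 3.11.15 (pandas 2.3.3, numpy 2.4.6, scipy 1.17.1), drawing in matplotlib 3.10.9, and the counting was tested on simulated data.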

Additional observations from a re-analysis of the deposited data

Results flagged for a closer look

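Among the 38 autophagy genes, 3 had genotype differences of opposite sign on Day 0 and Day 4 that lay at least 2 apart on the log2(FPKM + 1) scale. The difference on Day 4 minus that on Day 0 was 2.56 for *Sqstm1*, 2.27 for *Atg7* and -8.57 for *Nbr1*. The difference between the days was not tested, because a genotype and day have only 1 value, made from both animals. In *Sqstm1* the Day 0 difference was -0.03, close to 0, and so the change of sign says little. For *Atg7* it was -0.57, at 4.28 FPKM in flox/flox and 2.54 FPKM in ΔIEC cells. *Nbr1* stood at 17.5 and 23.9 FPKM on Day 0.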

How the results depend on the processing

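No paired analysis was possible because each genotype has 1 pooled value per day, and for the same reason no animal could be left out. The count of members at least 2-fold higher on Day 0 (3) became 1 after centring on the median of all genes, 1 after subtraction of the length trend, 8 at a limit of 1.5-fold, 0 at 4-fold, 7 with a pseudocount of 0.1 and 0 with a pseudocount of 5. On Day 4 the 10 higher members became 16 after division by summed FPKM, 6 at a minimum of 5 FPKM, 6 after subtraction of the length trend, 2 at 4-fold and 2 with a pseudocount of 5. On Day 11 the 12 higher members became 7 at a minimum of 5 FPKM, 5 after subtraction of the length trend, 2 at 4-fold and 3 with a pseudocount of 5. On Day 0 the share higher was 13.3% of members and 11.4% of all genes at a minimum of 5 FPKM. It was 22.9% and 27.3% at 1.5-fold, and 2.86% and 11.4% after subtraction of the length trend. The 0 members at 4-fold and with a pseudocount of 5 stood beside 2.09% and 2.51% of all genes. With a pseudocount of 0.1 and after centring, the members' share on Day 0 was also below that of all genes. On Day 4 the share higher was 57.1% of members and 40.5% of all genes after division by summed FPKM and 37.5% and 27.4% at a minimum of 5 FPKM, but 21.4% and 20.3% after subtraction of the length trend, 7.14% and 7.36% at 4-fold and 7.14% and 9.33% with a pseudocount of 5. On Day 11 it was 43.8% and 27.5% at a minimum of 5 FPKM, 17.9% and 20.2% after subtraction of the length trend, 7.14% and 7.46% at 4-fold and 10.7% and 9.28% with a pseudocount of 5. After subtraction of the length trend, at 4-fold and with a pseudocount of 5, the members' share was thus below that of all genes or within 2 percentage points of it. Of the lower members, the 1 of Day 0 became 0 at a minimum of 5 FPKM, at 4-fold and with a pseudocount of 5, beside 18.4%, 3.35% and 6.24% of all genes. The 4 of Day 4 became 2 at a minimum of 5 FPKM, 2 after division by summed FPKM (without *Ulk1* and *Map1lc3a*), 7 at 1.5-fold, 1 at 4-fold and 1 with a pseudocount of 5. In the same order 34.8%, 15.2%, 34.3%, 10.3% and 13.6% of all genes were lower. The 4 of Day 11 became 2, 2, 1 and 1 under the same settings without 1.5-fold, beside 34.6%, 14.9%, 10.2% and 13.6% of all genes. Higher minimums and limits leave fewer genes by construction, and for the other settings the cause was not tested. The median over members that passed ranged from 0.27 to 1.18 on Day 4 and from 0.25 to 1.16 on Day 11, and on Day 0 it changed from 0.25 to -0.01 after subtraction of the length trend. On Day 4 the median was 0.12 to 1.37 for initiation genes, 0.14 to 1.14 for lipidation genes and 0.22 to 1.70 for receptors. In all, 27 counts moved by more than 1.5 times. The sum of FPKM differed between genotypes by -0.84 (log2) on Day 4, so a difference near 0 has no fixed sign, and *Atg101*, *Atg4b*, *Atg9a*, *Gabarap* and *Atg2b* turned positive after division by it. With unknown depth and 2 pooled animals per group, the spread between animals remains unmeasured.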
